A study of Homo sapiens with 18 samples.

Results

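The genes that encode the proteins of the mitochondrial ribosome were followed across 18 RNA-seq libraries of NCI-H1299 lung cancer cells. They were taken as the protein-coding genes of the count table whose symbols begin with MRPL or MRPS and a number, and 77 of the 63677 genes met that rule. MRPL45, a further large-subunit gene, was not matched by identifier and is not analysed here. Of these, 50 are listed for the large subunit (29 with a bacterial counterpart and 21 found only in mitochondria), 26 for the small subunit (16 and 10), and MRPS36 carries the family name without being a ribosomal subunit. The count filter kept 74 of the 77 among 15576 genes tested.

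The mitochondrial ribosome is the translation machine of the mitochondrial matrix. Its RNA is transcribed from the mitochondrial genome, whereas all of its proteins are encoded in the nucleus, made in the cytoplasm and imported. It translates the 13 proteins of the mitochondrial genome, which are core subunits of the respiratory chain and of ATP synthase, so its protein genes are usually expressed in every cell that respires.

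NCI-H1299 is a human non-small cell lung cancer line, here labelled lung adenocarcinoma, grown in a low-glucose medium with FBS. Cells were transfected transiently with a plasmid for 1 of 4 T-box transcription factors: Flag-tagged human TBX2, Flag-tagged human TBX4, HA-tagged human TBX3 or HA-tagged mouse Tbx5 (the TBX5 group), all of which the study examined as candidate tumor suppressors. The TBX2 and TBX4 plasmids were of the pORF type and the TBX3 and Tbx5 plasmids of the pCGN type. Between groups on unlike plasmids the factor cannot be told apart from the plasmid backbone and tag. The controls were cells with an empty vector (EV), whose backbone the study does not name, and cells labelled Ctl, whose treatment the labels do not name. Each group had 3 libraries, lettered a to c, and the 6 EV and Ctl libraries were pooled as controls for every TBX group, so the 4 comparisons with controls share those libraries. The plasmid enters only part of a culture, so each library mixes transfected and untransfected cells, and in such bulk RNA fewer cells cannot be told apart from less RNA per cell. Nothing states that the libraries of a group came from separate cultures, and p-values therefore measure the spread between these libraries, which may be technical. The library titled 4c-TBX5 was placed in the TBX4 group by the number and letter of its title, which go against the factor that the same title names. It held 85197 counts of TBX4 and 1 of TBX5, and without it 5 members were called with TBX4 in place of 8.

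The libraries held 7365221 to 11743179 counts, and 1 gene without a symbol took between 10.7% and 53.5% of them, which leaves fewer counts for all others. Its share was 13.2% to 18.6% in the TBX4 libraries, 22.5% to 53.5% in the TBX5 libraries and 12.4% to 40.2% in the controls. Counts of the plasmid genes followed the groups, with 27704 to 47916 counts of TBX2, 135416 to 320890 of TBX3 and 85197 to 109159 of TBX4 in their own groups; the mouse plasmid gave 1161 to 1302 counts on the human TBX5 gene. Each library of the other 3 TBX groups also held 6 to 19 counts of TBX4, against 0 to 1 in the controls, and the source of these few counts was not tested. The epithelial keratins KRT8 and KRT18 and the mesenchymal filament VIM were detected in every library. The lung differentiation genes NKX2-1, SFTPB and NAPSA, the blood cell gene PTPRC and the fibroblast gene COL1A1 stayed at 0 to 10 counts. KRT8, KRT18 and VIM were called lower in the TBX2 and TBX3 libraries (log2 fold changes of -0.79, -0.56 and -0.31 with TBX2, and -0.45, -0.41 and -0.24 with TBX3), KRT8 also with TBX4 (-0.23) and higher with TBX5 (0.26), and their part in the results for the ribosomal genes was not tested.

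More of the mitochondrial ribosomal protein genes were called lower than higher with TBX2, TBX3 and TBX5. With TBX4 the calls were 5 lower and 3 higher, and this balance rested on single libraries: it was 2 and 3 without TBX4 replicate c, 3 and 4 without EV replicate b or c, 3 and 3 without Ctl replicate c and 2 and 2 without TBX4 replicate a. A gene was called where its adjusted p in edgeR's quasi-likelihood test was under 0.1. Of the 74 genes, 36 were called in at least 1 of the 4 TBX comparisons. Of these 36, 30 were called only lower, 6 only higher and 0 in both directions. The matching shares over all tested genes are not given here, and with TBX2 alone 15.6% of them were called lower and 17.0% higher. MRPL20, MRPL4, MRPS16 and MRPS34 were called lower with each factor. MRPS12, a small-subunit protein, showed the deepest fall of any member called, to 0.64 of the control level with TBX2, while MRPL10, a protein of the large subunit's stalk, rose 1.47-fold in the same cells.

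In cells with TBX2, 20 of the 74 genes were called lower, against 15.6% of all tested genes, and 6 were called higher, against 17.0%. With TBX3, 13 were called lower and 0 higher, where the shares over all genes were 6.40% and 8.47%. TBX4 gave 5 lower and 3 higher calls beside 6.07% and 6.97% of all genes, and TBX5 gave 11 lower and 2 higher beside 6.12% and 6.55%. As shares of the members, the lower calls came to 27.0% for TBX2, 17.6% for TBX3, 6.76% for TBX4, and 14.9% in the TBX5 group. With TBX4 the share of lower calls thus lay close to the background, and with the other 3 factors above it. The higher calls lay under the background in all 4 comparisons.

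The shifts were small. The median log2 fold change of the 74 genes was -0.07 for TBX2, -0.11 for TBX3, -0.01 for TBX4, and -0.10 in the TBX5 group, while over all tested genes it lay between -0.0058 and -0.0013. Values below 0 were found for 45, 60, 39 and 59 of the 74 genes in the same order. The summed level of the members was 2096 ± 59.5 CPM (counts relative to the TMM-scaled library size; SD, n = 6) in the controls, 2004 ± 107 for TBX2, 1934 ± 49.3 for TBX3, 2079 ± 77.6 for TBX4, and 1940 ± 24.7 in the TBX5 group (n = 3 each). The 3 libraries of TBX3 and the 3 of TBX5, at 1890 to 1987 CPM, all lay below the lowest control at 2026, whereas TBX2 and TBX4 libraries overlapped the controls. In the EV, TBX3, TBX4 and TBX5 groups, but not in the Ctl and TBX2 groups, the library with the lowest share of counts on the gene without a symbol had the highest summed level, and the part of that share in the results was not tested. Scaling by library totals, which counts the abundant gene without a symbol, moved the median of all tested genes to 0.01, -0.08, 0.25 and -0.31 with TBX2, TBX3, TBX4 and TBX5 and that of the members to -0.07, -0.20, 0.25 and -0.41, and the calls became 1 higher and 2 lower, 0 and 0, 10 higher and 0 lower, and 0 and 0. A change of scaling moves all genes of a comparison nearly alike, so the place of the members relative to all genes is no separate support. Fold changes below are on the TMM scale.

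**Figure D1:**
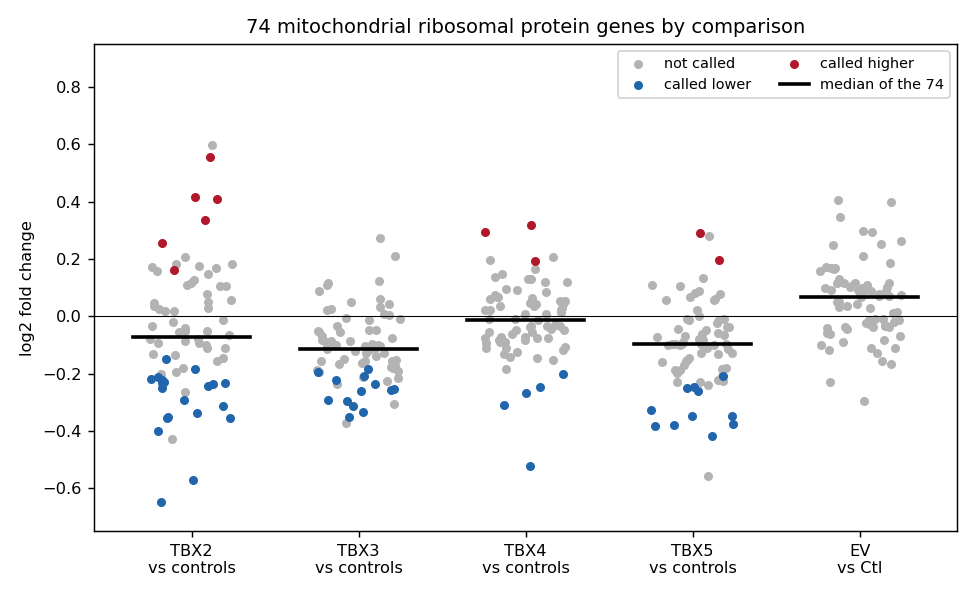
Log2 fold change (vertical axis) of the 74 tested mitochondrial ribosomal protein genes in each TBX group against the 6 pooled controls and in EV against Ctl; each point is a gene, colors mark genes called at an adjusted p under 0.1, and bars are medians. The medians lie at -0.07, -0.11, -0.01, -0.10 and 0.07, and called genes are mostly on the lower side in the TBX2, TBX3 and TBX5 comparisons.

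The 2 kinds of control were compared for the same genes. In EV against Ctl 0 of the 74 genes were called by edgeR and 0 by DESeq2, with 0.385% of all tested genes called, and 10 of the 74 had an unadjusted p under 0.05. The median log2 fold change was 0.07, with 28 genes below 0, so the empty-vector libraries stood slightly above the Ctl libraries for this family. The difference matters for the count of calls: against the 3 Ctl libraries alone 9, 3, 2 and 3 genes were called lower with TBX2, TBX3, TBX4 and TBX5, and against the 3 EV libraries alone 18, 13, 4 and 12.

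Calls fell on both subunits. Of the 24 small-subunit genes tested, 8, 6, 3 and 6 were called lower with TBX2, TBX3, TBX4 and TBX5, and of the 49 large-subunit genes 12, 7, 2 and 5. Median log2 fold changes of the small-subunit genes were -0.12, -0.16, -0.05 and -0.16, and those of the large-subunit genes -0.05, -0.10, -0.01 and -0.10. With TBX2, 3 small-subunit and 3 large-subunit genes were called higher (12.5% and 6.12%, beside 17.0% of all tested genes). The 3 higher calls with TBX4 and the 2 with TBX5 were all large-subunit genes (6.12% and 4.08%, beside 6.97% and 6.55%). Among the 21 genes for large-subunit proteins found only in mitochondria, 4, 4, 0 and 2 were called lower (19.0%, 19.0%, 0% and 9.52%). Among the 28 with a bacterial counterpart, 8, 3, 2 and 3 were (28.6%, 10.7%, 7.14% and 10.7%). In the small subunit 3, 3, 1 and 4 of the 10 genes found only in mitochondria were called lower (30.0%, 30.0%, 10.0% and 40.0%). Of the 14 with a bacterial counterpart, 5, 3, 2 and 2 were (35.7%, 21.4%, 14.3% and 14.3%). With TBX2 the median log2 fold change was 0.03 for the large-subunit genes found only in mitochondria, -0.07 for the other large-subunit genes, and -0.08 and -0.21 for the same classes of the small subunit. No test compared the classes.

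**Figure D2:**
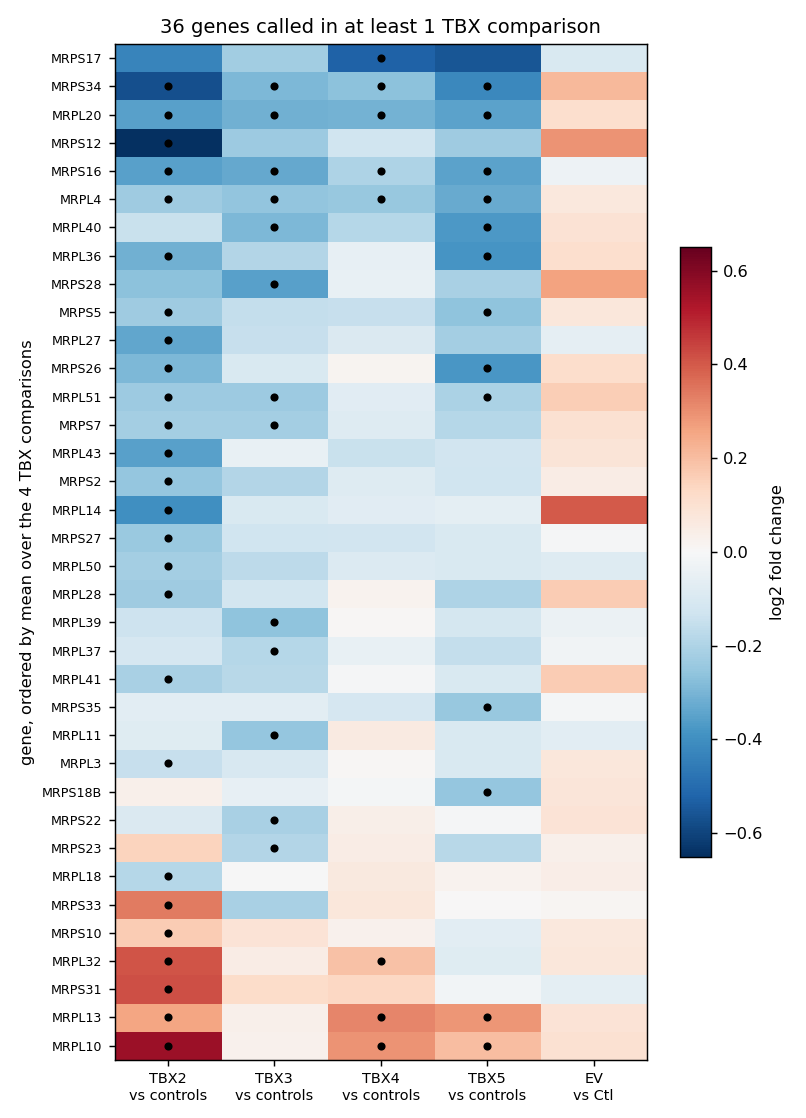
Log2 fold change (color) of the 36 genes called in at least 1 TBX comparison, one gene a row and one comparison a column, ordered by the mean over the TBX comparisons; a dot marks a call at an adjusted p under 0.1. Rows with dots in all 4 TBX columns are MRPS34, MRPL20, MRPS16 and MRPL4, and the EV against Ctl column holds no dot.

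MRPL20, MRPL4, MRPS16 and MRPS34 were the 4 members called lower in all 4 comparisons, and 193 of all tested genes (1.24%) had that pattern. MRPL20 and MRPL4 are large-subunit proteins with bacterial counterparts, MRPS16 is a small-subunit protein with a bacterial counterpart, and MRPS34 is a small-subunit protein that bacteria lack. On GRCh37 they lie on the minus strand of chromosome 1 (1337289 to 1342673), the plus strand of chromosome 19 (10362577 to 10370731), the minus strand of chromosome 10 (75008601 to 75012451) and the minus strand of chromosome 16 (1821891 to 1823151).

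Promoter windows of these 4 genes are shown because their calls went the same way with each factor. Each runs from 250 bases before to 50 after the RefSeq start on GRCh38.p14: MRPL20 at chr1:1407244-1407543 (minus strand), MRPL4 at chr19:10251701-10252000 (plus), MRPS16 at chr10:73252595-73252894 (minus) and MRPS34 at chr16:1773085-1773384 (minus). Capitals mark the ETS-type motif CCGGAA or its reverse complement TTCCGG.
MRPL20: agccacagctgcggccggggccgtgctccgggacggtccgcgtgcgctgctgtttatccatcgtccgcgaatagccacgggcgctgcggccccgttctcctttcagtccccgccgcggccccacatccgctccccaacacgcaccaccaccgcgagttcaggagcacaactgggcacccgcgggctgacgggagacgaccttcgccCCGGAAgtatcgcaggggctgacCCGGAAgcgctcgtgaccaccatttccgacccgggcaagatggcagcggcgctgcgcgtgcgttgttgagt
MRPL4: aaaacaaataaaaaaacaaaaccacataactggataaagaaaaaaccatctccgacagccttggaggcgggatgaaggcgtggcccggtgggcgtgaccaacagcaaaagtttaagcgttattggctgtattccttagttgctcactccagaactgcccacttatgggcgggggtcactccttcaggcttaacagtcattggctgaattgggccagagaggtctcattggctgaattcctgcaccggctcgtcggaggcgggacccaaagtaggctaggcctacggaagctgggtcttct
MRPS16: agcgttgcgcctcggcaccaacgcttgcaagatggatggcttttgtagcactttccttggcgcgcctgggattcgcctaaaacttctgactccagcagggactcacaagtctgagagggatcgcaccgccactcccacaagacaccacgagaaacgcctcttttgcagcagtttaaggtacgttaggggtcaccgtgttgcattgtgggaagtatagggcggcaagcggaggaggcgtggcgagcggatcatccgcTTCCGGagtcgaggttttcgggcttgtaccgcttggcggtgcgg
MRPS34: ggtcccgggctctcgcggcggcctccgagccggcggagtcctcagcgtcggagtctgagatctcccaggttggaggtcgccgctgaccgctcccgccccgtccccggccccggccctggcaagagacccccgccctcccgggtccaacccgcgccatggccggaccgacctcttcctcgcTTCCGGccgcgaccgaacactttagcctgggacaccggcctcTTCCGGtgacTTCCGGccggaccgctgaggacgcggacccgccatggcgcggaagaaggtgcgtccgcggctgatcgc
The motif occurred 2 times in the MRPL20 window, 1 time in MRPS16, 3 times in MRPS34 and not in MRPL4. A T-box motif, GGTGTGA on either strand, was in none of the 4 windows.

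MRPS16 gave the clearest pattern of the 4. Its level was 40.7 to 46.3 CPM in the controls (median 42.8), 34.1, 34.1 and 33.1 for TBX2, 35.6, 33.9 and 33.4 for TBX3, 38.2, 35.7 and 39.2 for TBX4, and 37.2, 31.4 and 32.2 in the TBX5 group. All 12 TBX libraries lay below the lowest control. The log2 fold changes were -0.35 ± 0.07 (values after ± on the log2 scale are SEs; adjusted p = 0.000476, edgeR) for TBX2, -0.33 ± 0.07 (adjusted p = 0.00158) for TBX3, -0.20 ± 0.06 (adjusted p = 0.0406) for TBX4, and -0.35 ± 0.07 (adjusted p = 0.00445) in the TBX5 group. The TBX4 call was lost without TBX4 replicate a or b (largest adjusted p = 0.225) and with the EV controls alone, and its value turned to 0.06 under library totals. The 2 kinds of control did not separate, at -0.03 ± 0.07 (adjusted p = 0.930).

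MRPL20 lay between 28.4 and 35.5 CPM in the controls (median 32.5), at 24.0, 27.2 and 24.5 for TBX2, 28.4, 29.0 and 22.4 for TBX3, 27.2, 26.9 and 24.3 for TBX4, and 25.1, 23.8 and 27.7 in the TBX5 group. The groups with TBX2, TBX4 and TBX5 were each below every control, and in the TBX3 group only replicate c was well below. Log2 fold changes ran from -0.35 ± 0.08 with TBX2 (adjusted p = 0.00254, edgeR) to -0.31 ± 0.07 with TBX4 (adjusted p = 0.00827). With TBX3 the value was -0.31 ± 0.09 (adjusted p = 0.0213), and the call was lost without TBX3 replicate c (adjusted p = 0.271). With TBX5 it was -0.35 ± 0.09 (adjusted p = 0.0139).

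MRPS34 reached 23.4 to 30.8 CPM in the controls (median 27.9), 15.8, 20.2 and 18.5 for TBX2, 23.5, 25.2 and 19.3 for TBX3, 20.2, 26.0 and 21.4 for TBX4, and 16.1, 24.4 and 22.3 in the TBX5 group. Only the TBX2 libraries were all below the controls, and in each other group at least 1 library lay among them. The fitted level with TBX2 was 0.67 of that in the controls, a log2 fold change of -0.57 ± 0.10 (adjusted p = 0.000199, edgeR). With TBX3, TBX4 and TBX5 the values were -0.29 ± 0.10, -0.27 ± 0.09 and -0.42 ± 0.12 (adjusted p = 0.0542, 0.0635 and 0.0289). Those calls were lost without EV replicate a, EV replicate b or TBX3 replicate c for TBX3, without EV replicate a or b or TBX4 replicate a or c for TBX4, and without TBX5 replicate a for TBX5, at adjusted p-values of up to 0.408, 0.323 and 0.308.

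MRPL4 was the weakest of the 4. Its level was 20.4 to 25.4 CPM in the controls (median 23.3), 18.3, 21.9 and 18.3 for TBX2, 18.3, 22.9 and 17.7 for TBX3, 19.5, 21.3 and 17.5 for TBX4, and 15.4, 23.4 and 17.9 in the TBX5 group. Replicate b of every TBX group lay among the controls and the other libraries lay below them. The log2 fold changes of -0.23 ± 0.09, -0.26 ± 0.09, -0.25 ± 0.09 and -0.33 ± 0.11 had adjusted p-values of 0.0760, 0.0879, 0.0687 and 0.0803 (edgeR), all near the threshold of 0.1. Each call was lost in 5 of the 9 fits that left out 1 library, namely those without Ctl replicate c, EV replicate b, EV replicate c, and replicate a or c of the TBX group itself, with adjusted p-values of up to 0.285, 0.397, 0.306 and 0.482. DESeq2 called MRPL4 in none of the 4 comparisons, and under library totals its value with TBX4 turned to 0.01.

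**Figure D3:**
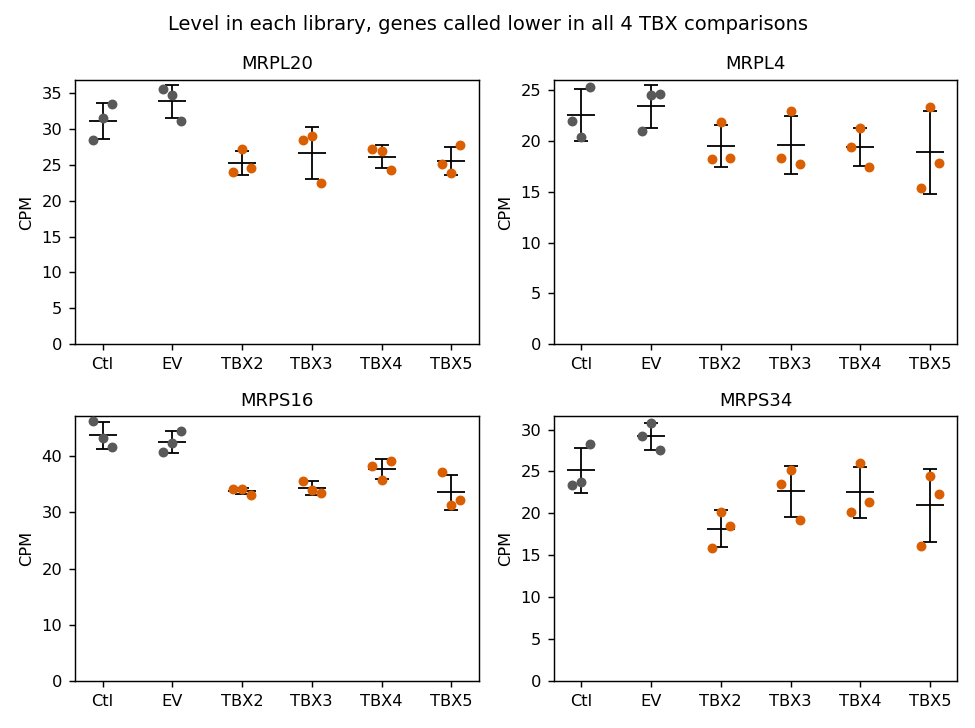
Level in CPM (vertical axis) of MRPL20, MRPL4, MRPS16 and MRPS34 in each library; points are libraries, bars are the group mean and SD (n = 3), gray marks the controls and orange the TBX groups. All 12 TBX points of MRPS16 lie below its lowest control, while for MRPL4 replicate b of each TBX group lies among the controls.

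Exons of all 4 genes overlap other annotated genes, and reads were counted without regard to strand. The overlap covers 15.5% of the exon bases of MRPL20 (MRPL20-AS1 and RN7SL657P), 21.3% of MRPL4, 14.1% of MRPS16 (DNAJC9-AS1) and 31.2% of MRPS34 (EME2), so part of their reads cannot be assigned with certainty. Over the family, 36 of the 74 tested genes had such an overlap. Lower calls among those 36 genes numbered 11, 9, 5 and 5, and among the 38 genes without overlap 9, 4, 0 and 6. With TBX4 all 5 lower calls thus fell on overlapped genes. MRPL20 and MRPS16 also have annotated pseudogenes, as do 34 of the 77 members, and the part of these copies was not tested.

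MRPL51, a large-subunit protein found only in mitochondria, had the highest level per length in the controls, at 86.8 CPM per kb of transcript. It was called lower with 3 factors. Its level was 69.3 to 85.3 CPM in the controls (median 78.2), 56.0, 79.6 and 61.8 for TBX2, 64.7, 64.7 and 68.5 for TBX3, 81.0, 74.3 and 67.3 for TBX4, and 63.6, 68.9 and 71.5 in the TBX5 group. The TBX3 libraries were all below the controls and the other groups overlapped them. Log2 fold changes were -0.24 ± 0.09 with TBX2 (adjusted p = 0.0504, edgeR), -0.24 ± 0.07 with TBX3 (adjusted p = 0.0221) and -0.21 ± 0.07 with TBX5 (adjusted p = 0.0830). The TBX2 call was lost without TBX2 replicate a or c (adjusted p up to 0.368), and the TBX5 call was lost in 7 of 9 fits without 1 library, all but those without Ctl replicate a or b (adjusted p up to 0.297). Exons of the condensin gene NCAPD2 overlap 27.6% of its exon bases.

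MRPL3 and MRPL18, core proteins of the large subunit, followed at 68.7 and 58.1 CPM per kb. MRPL3 lay at 108.3 to 122.6 CPM in the controls and at 99.3, 111 and 107 with TBX2, groups that overlap, and MRPL18 at 53.5 to 60.2 CPM in the controls and at 46.2, 56.1 and 45.8 with TBX2, again with 1 library among the controls. Both were called lower with TBX2 alone among the 4 factors, at log2 fold changes of -0.15 ± 0.06 (adjusted p = 0.0815, edgeR) and -0.18 ± 0.07 (adjusted p = 0.0661). The MRPL3 call was lost without Ctl replicate c, any EV library, or TBX2 replicate a or c, and the MRPL18 call without Ctl replicate c, EV replicate a or c, or TBX2 replicate a or c (adjusted p up to 0.325 and 0.290). Across the 74 tested genes mean control levels ran from 1.26 to 117 CPM with a median of 22.5, against a median of 10.5 over all tested genes.

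The members that missed the filter were MRPS21, MRPL30 and MRPS24, which also had the lowest levels per length. MRPS21 was at 0 counts in every library, MRPL30 at 0 to 4 and MRPS24 at 2 to 14. MRPS21 has 8 annotated pseudogenes, and 23.2% of the exon bases of MRPS24 are shared with the read-through gene URGCP-MRPS24, so these low counts are uncertain as measures of expression.

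MRPS12, the counterpart of the bacterial decoding-site protein S12, lies on the plus strand of chromosome 19 (39421584 to 39423808, GRCh37) back to back with SARS2, the gene of the mitochondrial seryl-tRNA synthetase, with 181 bases between their starts. Its promoter window on GRCh38.p14 (chr19:38930694-38930993, plus strand) is shown because MRPS12 was the member called with the largest fall, and it holds 1 ETS-type motif, in capitals.
MRPS12: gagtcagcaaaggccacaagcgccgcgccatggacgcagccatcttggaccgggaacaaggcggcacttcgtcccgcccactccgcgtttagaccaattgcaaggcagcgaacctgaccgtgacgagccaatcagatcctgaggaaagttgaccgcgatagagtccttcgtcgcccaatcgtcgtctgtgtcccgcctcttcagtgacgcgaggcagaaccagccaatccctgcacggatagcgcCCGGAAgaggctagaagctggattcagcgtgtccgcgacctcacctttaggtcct
The controls held 27.2 to 37.3 CPM of MRPS12 (median 30.9), the TBX2 libraries 21.0, 21.3 and 16.9, the TBX3 libraries 23.5, 27.6 and 28.2, the TBX4 libraries 29.8, 30.0 and 26.0, and the TBX5 libraries 27.4, 24.6 and 27.9. The TBX2 libraries were below all others. The log2 fold change with TBX2 was -0.65 ± 0.10 (adjusted p = 6.14e-05, edgeR), and the call held in 9 of 9 fits without 1 library. With TBX3, TBX4 and TBX5 the values of -0.24 ± 0.09, -0.13 ± 0.09 and -0.23 ± 0.10 were not called (adjusted p = 0.111, 0.386 and 0.161).

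The difference between TBX groups was tested directly for MRPS12, though the TBX3 and TBX5 groups differ from TBX2 in plasmid backbone and tag as well. It was lower with TBX2 than with TBX3 by a log2 difference of -0.41 ± 0.10 (adjusted p = 0.00701, edgeR, 1 fit of the 18 libraries), than with TBX4 by -0.52 ± 0.10 (adjusted p = 0.000659) and than with TBX5 by -0.42 ± 0.11 (adjusted p = 0.0109). EV libraries, at 32.4 to 37.3 CPM, were also above Ctl libraries, at 27.2 to 29.4, with a log2 difference of 0.29 ± 0.08 that was not called (adjusted p = 0.180). SARS2, its neighbor, was called lower with TBX2, TBX3 and TBX4, at log2 fold changes of -0.80 ± 0.23, -0.63 ± 0.23 and -0.69 ± 0.20 (adjusted p = 0.0138, 0.0893 and 0.0308), and stood at -0.42 ± 0.26 with TBX5 (adjusted p = 0.360). SARS2 was counted thinly, at 7 to 43 counts a library.

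MRPL10, which anchors the stalk where translation factors dock, was the member with the largest rise called. Its controls lay tightly at 28.2 to 30.8 CPM (median 29.1), the TBX2 libraries at 41.9, 43.6 and 43.5, the TBX3 libraries at 28.4, 31.8 and 29.4, the TBX4 libraries at 33.9, 39.4 and 34.5, and the TBX5 libraries at 32.5, 34.5 and 34.2. All TBX2, TBX4 and TBX5 libraries were above every control, and TBX3 libraries overlapped them. The log2 fold changes were 0.55 ± 0.06 with TBX2 (adjusted p = 1.06e-06, edgeR), 0.29 ± 0.07 with TBX4 (adjusted p = 0.00554), 0.20 ± 0.07 with TBX5 (adjusted p = 0.0905) and 0.03 ± 0.07 with TBX3 (adjusted p = 0.877). The TBX2 and TBX4 calls held in 9 of 9 fits without 1 library, and the TBX5 call in 2 of 9, those without EV replicate b or c (adjusted p up to 0.224 in the others), and under library totals the TBX5 value turned to -0.12.

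Between TBX groups, MRPL10 was higher with TBX2 than with TBX3, TBX4 and TBX5 by log2 differences of 0.53 ± 0.07, 0.26 ± 0.07 and 0.35 ± 0.08 (adjusted p = 1.56e-05, 0.0220 and 0.00331, edgeR). It was also lower with TBX3 than with TBX4, by -0.27 ± 0.07 (adjusted p = 0.0226). MRPL10 lies on the minus strand of chromosome 17 (45900638 to 45908907, GRCh37), back to back with LRRC46, whose start is 129 bases away. LRRC46 was called higher in 2 of the 3 comparisons where MRPL10 was, at log2 fold changes of 1.74 ± 0.21 with TBX2 (adjusted p = 1.45e-06) and 0.86 ± 0.22 with TBX4 (adjusted p = 0.0158), beside 0.10 ± 0.30 with TBX5 (adjusted p = 0.883).

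MRPL13, a core large-subunit protein on chromosome 8, rose with the same 3 factors as MRPL10. It lay at 28.9 to 36.9 CPM in the controls (median 34.0), 39.5, 41.1 and 39.9 for TBX2, 30.9, 32.3 and 38.7 for TBX3, 43.9, 43.0 and 39.3 for TBX4, and 46.6, 36.5 and 38.9 in the TBX5 group. TBX2 and TBX4 libraries were above every control, and 1 TBX5 library fell among them. The log2 fold changes were 0.25 ± 0.08 with TBX2 (adjusted p = 0.0147, edgeR), 0.32 ± 0.07 with TBX4 (adjusted p = 0.00446) and 0.29 ± 0.09 with TBX5 (adjusted p = 0.0384, and 0.338 without TBX5 replicate a), where library totals turned the last value to -0.0037. It was lower with TBX3 than with TBX4 by -0.29 ± 0.09 (adjusted p = 0.0606). MTBP, which codes for a binding partner of MDM2 and starts 269 bases away in the other direction, was called higher with TBX2 (0.34 ± 0.07, adjusted p = 0.00105) and TBX4 (0.23 ± 0.07, adjusted p = 0.0373) and stood at 0.17 ± 0.07 with TBX5 (adjusted p = 0.136).

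**Figure D4:**
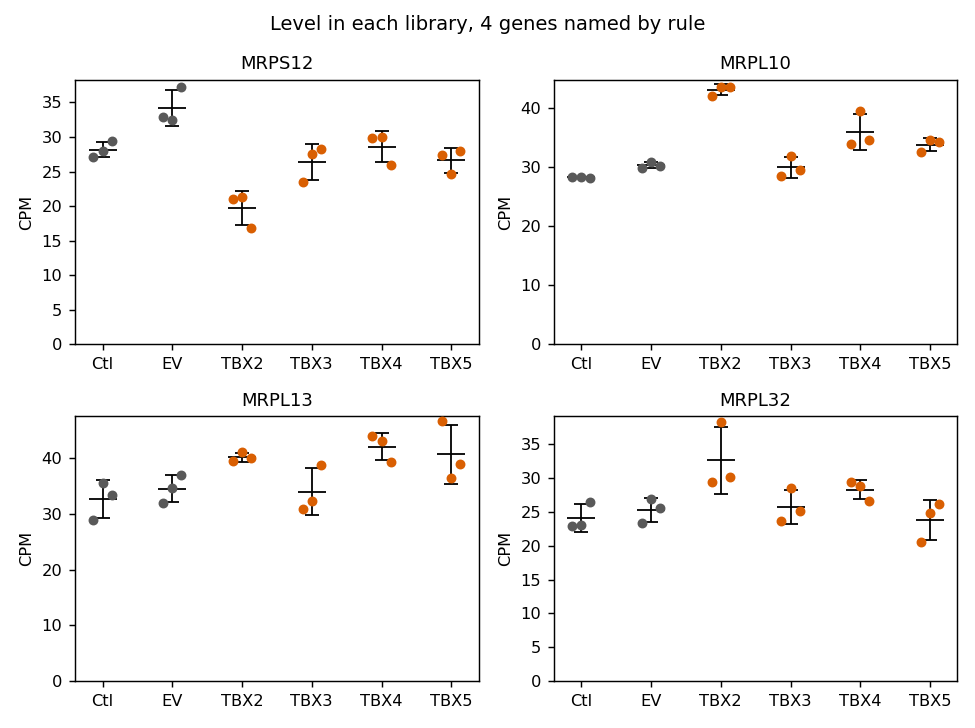
Level in CPM (vertical axis) of MRPS12, MRPL10, MRPL13 and MRPL32 in each library; points are libraries, bars are the group mean and SD (n = 3), gray marks the controls and orange the TBX groups. MRPS12 is lowest and MRPL10 highest in the 3 TBX2 libraries, at 16.9 to 21.3 and 41.9 to 43.6 CPM.

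MRPL32, a large-subunit protein that is cleaved after import by the inner-membrane AAA protease, was called higher with TBX2 and TBX4. Its controls lay at 22.8 to 26.9 CPM (median 24.4), the TBX2 libraries at 29.4, 38.2 and 30.2, and the TBX4 libraries at 29.4, 28.9 and 26.7. The TBX2 libraries were above the controls and 1 TBX4 library fell among them. The log2 fold change was 0.41 ± 0.09 with TBX2 (adjusted p = 0.00122, edgeR) and 0.19 ± 0.07 with TBX4 (adjusted p = 0.0980), and the TBX4 call was lost without Ctl replicate a or b, EV replicate a, or TBX4 replicate a or b (adjusted p up to 0.276). With TBX3 and TBX5 the values were 0.05 ± 0.08 and -0.08 ± 0.09 (adjusted p = 0.779 and 0.682), and the level with TBX2 was higher than with TBX3 and TBX5 by 0.36 ± 0.10 and 0.49 ± 0.11 (adjusted p = 0.0218 and 0.00502).

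MRPS31, a small-subunit protein found only in mitochondria, rose with TBX2 alone among the calls. Its controls lay at 9.71 to 11.5 CPM (median 10.2) and the TBX2 libraries at 12.6, 13.8 and 15.4, all above them. The log2 fold change was 0.42 ± 0.10 (adjusted p = 0.00389, edgeR), and the level with TBX2 was higher than with TBX5 by 0.43 ± 0.13 (adjusted p = 0.0363). MRPS10 and MRPS33, also of the small subunit, were the other members called higher, each with TBX2 only, at log2 fold changes of 0.16 ± 0.07 and 0.34 ± 0.09 (adjusted p = 0.0837 and 0.00932). MRPS35, a small-subunit protein, had one of the smallest p-values among the members called lower with TBX5. It had 73.1 to 81.1 CPM in the controls (median 77.7) and 69.7, 62.7 and 62.5 with TBX5, all below them, for a log2 fold change of -0.25 ± 0.06 (adjusted p = 0.0159, and 0.106 without TBX5 replicate c).

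Besides MRPL20, MRPL4, MRPS16, MRPS34 and MRPL51, 5 members were called lower in 2 comparisons and 20 in 1. Those called lower in 1 include MRPS12, MRPL3, MRPL18 and MRPS35, described above. MRPL36 and MRPS26 were called with TBX2 and TBX5, as was MRPS5, MRPL40 with TBX3 and TBX5, and MRPS7 with TBX2 and TBX3. Of these MRPL40 reached -0.38 ± 0.10 (adjusted p = 0.0187, edgeR) and MRPL36 -0.38 ± 0.10 (adjusted p = 0.0244) with TBX5. MRPS17, singled out after its values were seen, had the lowest log2 fold changes of the family with TBX4 and TBX5, -0.52 ± 0.19 (adjusted p = 0.0898, called) and -0.56 ± 0.24 (adjusted p = 0.154, not called), on only 9 to 46 counts a library.

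Pairs of TBX groups were compared in 1 fit of the 18 libraries. TBX2 and TBX4 shared a plasmid backbone and tag, as did TBX3 and TBX5, and in the other pairs these differ along with the factor. Of the 74 genes, 6 were called higher and 2 lower with TBX2 than with TBX3 (15.5% of all tested genes called in either direction), 1 higher and 3 lower with TBX2 than with TBX4 (12.3%), and 10 higher and 1 lower with TBX2 than with TBX5 (12.1%). TBX3 against TBX4 gave 0 higher and 6 lower calls (9.97%), TBX3 against TBX5 gave 1 higher call (7.41%), and TBX4 against TBX5 gave 0 (0.539%). As shares higher and lower, members came to 8.11% and 2.70% for TBX2 against TBX3, beside 8.01% and 7.51% of all tested genes. TBX2 against TBX4 gave 1.35% and 4.05% beside 6.66% and 5.61%. TBX2 against TBX5 gave 13.5% and 1.35% beside 6.45% and 5.69%. TBX3 against TBX4 gave 0% and 8.11% beside 5.95% and 4.02%, and TBX3 against TBX5 1.35% and 0% beside 4.30% and 3.11%. In all, 21 members were called in at least 1 pair, and MRPS12 and MRPL10 were those called in 3 or more. The share of all tested genes called in at least 1 pair is not given here. In TBX4 against TBX5, where edgeR called none, 7 of the 74 genes had an unadjusted p under 0.05 and 60 lay above 0, with a median log2 difference of 0.09. The lower calls of TBX3 against TBX4 were MRPL10, MRPL11, MRPL13, MRPL35, MRPL39 and MRPS22, and 65 of the 74 genes lay below 0 there, with a median of -0.11.

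The family was set beside other genes of the same organelle and of protein synthesis. Of 84 cytoplasmic ribosomal protein genes tested, 49, 32, 6 and 13 were called lower in that order of the factors and 0 higher, with median log2 fold changes of -0.20, -0.16, -0.01 and -0.12. Of 81 nuclear-encoded respiratory chain genes, 31, 24, 3 and 10 were called lower and 3, 0, 3 and 2 higher, with medians of -0.15, -0.16, 0.01 and -0.07. Lower calls came to 58.3%, 38.1%, 7.14% and 15.5% of the cytoplasmic ribosomal and 38.3%, 29.6%, 3.70% and 12.3% of the respiratory chain genes. All tested genes gave 15.6%, 6.40%, 6.07% and 6.12% lower and 17.0%, 8.47%, 6.97% and 6.55% higher. The mitochondrial ribosomal protein genes thus had lower calls at a smaller share than both families with TBX2 and TBX3. The 13 protein-coding genes of the mitochondrial genome had medians of 0.13, 0.05, -0.22 and 0.15 and 1, 0, 2 and 0 lower calls, and with TBX4 all 13 lay below 0. No test compared the families with each other.

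**Figure D5:**
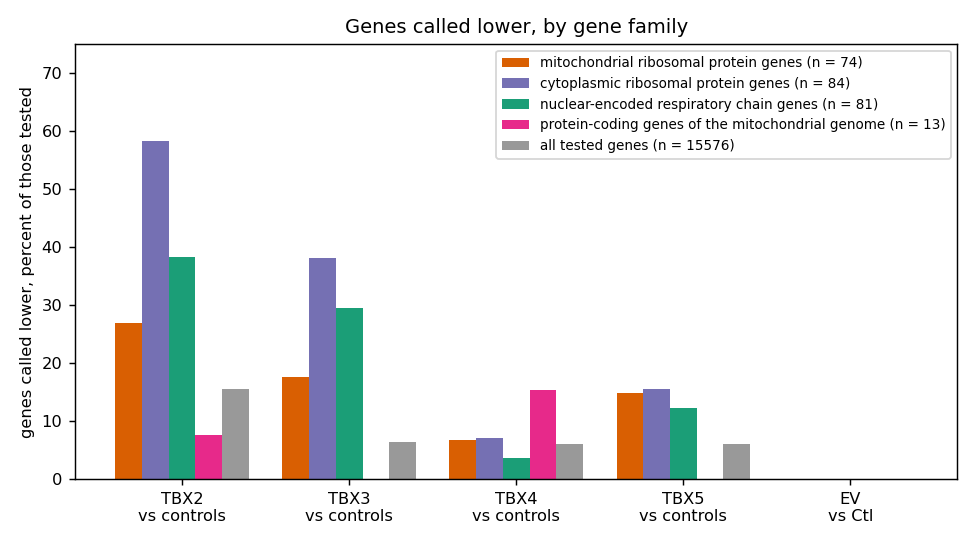
Genes called lower (percent of those tested, vertical axis from 0) in 5 comparisons for the mitochondrial ribosomal protein genes, 3 other families and all tested genes; a missing bar is 0%. Mitochondrial ribosomal protein genes reach 27.0%, 17.6%, 6.76% and 14.9% in the TBX2, TBX3, TBX4 and TBX5 comparisons. They lie above all tested genes with TBX2, TBX3 and TBX5 and below the cytoplasmic ribosomal protein genes with TBX2 and TBX3. With TBX4 they lie close to all tested genes (6.07%) and to the cytoplasmic ribosomal protein genes (7.14%), and with TBX5 close to the latter (15.5%).

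Genes that build or serve the mitochondrial ribosome but carry other names were read from lists. Of 5 further subunits (DAP3, AURKAIP1, CHCHD1, PTCD3 and GADD45GIP1), 1 was called lower with TBX2 and 1 with TBX5, and 0 in the other TBX comparisons. Among 21 assembly factors tested, 3, 1, 1 and 1 were called higher and 5, 2, 0 and 2 lower with TBX2, TBX3, TBX4 and TBX5. These came to 14.3%, 4.76%, 4.76% and 4.76% higher, where all tested genes gave 17.0%, 8.47%, 6.97% and 6.55%, and to 23.8%, 9.52%, 0% and 9.52% lower, where all tested genes gave 15.6%, 6.40%, 6.07% and 6.12%. The assembly factor RBFA, which matures the small subunit, was called lower with 3 factors, at log2 fold changes of -0.64 ± 0.14 with TBX2, -0.37 ± 0.12 with TBX3 and -0.49 ± 0.13 with TBX5 (adjusted p = 0.00169, 0.0498 and 0.0221, edgeR). With TBX4 its value was -0.29 ± 0.11 (adjusted p = 0.109).

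Of 14 mitochondrial translation factors tested, 5, 0, 2 and 2 were called higher and 2, 1, 0 and 0 lower in the same order. With TBX2 that was 35.7% higher and 14.3% lower, beside 17.0% and 15.6% of all tested genes. With TBX3 it was 0% and 7.14% beside 8.47% and 6.40%. With TBX4 it was 14.3% and 0% beside 6.97% and 6.07%, and with TBX5 14.3% and 0% beside 6.55% and 6.12%. The release factor genes MTRF1 and MTRF1L, whose products end translation at stop codons, were called higher with TBX2, TBX4 and TBX5. MTRF1 had log2 fold changes of 0.68 ± 0.14, 0.46 ± 0.13 and 0.43 ± 0.16 (adjusted p = 0.000920, 0.0203 and 0.0968, edgeR), and MTRF1L of 0.27 ± 0.08, 0.19 ± 0.07 and 0.32 ± 0.09 (adjusted p = 0.00991, 0.0849 and 0.0317). With TBX3 both stood at 0.09 and were not called (adjusted p = 0.788 and 0.543).

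Of 17 mitochondrial aminoacyl-tRNA synthetase genes, 2, 0, 1 and 0 were called higher and 3, 2, 1 and 0 lower, which with TBX2 was 11.8% and 17.6%. Of 13 genes for transcription and RNA handling in mitochondria, 2, 1, 0 and 1 were called higher and 1, 3, 0 and 0 lower, which with TBX2 was 15.4% and 7.69%. Both lists had counts of 0 to 3 genes in each comparison and direction. With TBX2 to TBX5 in turn, 17.0%, 8.47%, 6.97% and 6.55% of all tested genes were called higher and 15.6%, 6.40%, 6.07% and 6.12% lower. Of 9 regulators of mitochondrial genes, 0, 3, 0 and 1 were called higher and 1, 0, 2 and 0 lower. These came to 0%, 33.3%, 0% and 11.1% higher and 11.1%, 0%, 22.2% and 0% lower, on a list of only 9 genes. The coactivator PPRC1 was called higher with TBX3 (0.27 ± 0.07, adjusted p = 0.0101, edgeR), as was the ETS partner subunit GABPB1 (0.20 ± 0.07, adjusted p = 0.0981), and the zinc finger factor YY1 was called lower with TBX2 (-0.15 ± 0.06, adjusted p = 0.0539) and TBX4 (-0.15 ± 0.05, adjusted p = 0.0865). MYC was also called higher with TBX3 (0.18 ± 0.06, adjusted p = 0.0724, edgeR). The ETS factor GABPA was called higher with TBX5 (0.30 ± 0.10, adjusted p = 0.0671) and the coactivator PPARGC1A lower with TBX4 (-0.52 ± 0.13, adjusted p = 0.0123). With TBX2, TBX4 and TBX5 MYC stood at -0.03, -0.09 and -0.16 and PPRC1 at -0.10, -0.15 and -0.14, none of them called. NRF1 stood at -0.005, 0.21, 0.09 and -0.18 with TBX2 to TBX5 in turn and ESRRA at -0.16, -0.29, -0.19 and -0.30, and neither was called.

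Properties that the choice of members did not use were read from the annotation. Back-to-back starts within 1000 bases were found for 26 of the 77 members (33.8%), against 13.5% of 12247 tested protein-coding genes. Where the neighbor was also tested, 12 members with such a neighbor were called with TBX2. The neighbor was called the same way in 4, the opposite way in 1 and not called in 7. Over all tested genes 17.0% were called higher and 15.6% lower with TBX2. With TBX4 both members called, MRPL10 and MRPL13, had a neighbor called the same way, where 6.97% of all tested genes were called higher. With TBX3 and TBX5 no neighbor of the 4 and 5 members called was called. Whether neighbors were called alike more often than other genes was not tested.

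Promoter windows were matched for 68 of the 77 members. The ETS-type motif CCGGAA, on either strand, was found in 57.4% of them, against 30.1% of windows of tested protein-coding genes and 17.6% of all windows of that length. TGCGCA, a core of NRF1 sites, was in 19.1% against 13.9% and 8.42%, and the E-box CACGTG in 7.35% against 10.2% and 7.43%. The T-box motif GGTGTGA was in 1.47%, a single window (MRPS22), against 2.95% and 3.43%. A match describes the letters of a window only. Member transcripts were short, with a median of 1242 bases against 2922.5 over the tested genes with a length, and had a median GC content of 48.9% against 47.3%. Across the 74 members, which share libraries, the log2 fold change and GC content had Pearson correlations of -0.26, -0.20, -0.20 and -0.28 in the comparisons for TBX2 to TBX5 in turn, and 0.25 in EV against Ctl. Over 15186 tested genes these correlations were -0.073, -0.063, -0.034, -0.072 and 0.104.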

How the data were processed

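RNA-seq of 18 libraries was deposited by the authors as 1 table of raw counts per Ensembl gene, made with STAR 2.3.0 on GRCh37 and featureCounts at default settings, which ignore strand. Symbols and gene models came from GENCODE v44lift37, and the annotation release used for counting was not used here. A gene was tested if over 5 counts were found in 10 or more libraries, using edgeR 4.0.16 (R 4.3.3): TMM scaling, quasi-likelihood test, Benjamini-Hochberg adjustment over 15576 genes, threshold 0.1. Each TBX group was compared with the 6 pooled controls in its own fit, EV with Ctl likewise, and pairs of TBX groups in 1 fit of 18. CPM values are TMM-scaled, and totals of 7365221 to 11743179 counts set the precision. The test was tested on simulated data. Named members were those called alike in all 4 TBX comparisons, the 3 smallest p-values per comparison and direction, those called in 3 or more pairs, the 3 highest and lowest per length, and those failing the filter. Alternatives included DESeq2 1.42.0, other scalings and filters, GC correction, a replicate block and leaving out libraries. Members and lists were chosen with earlier results of these data known. Promoter windows came from RefSeq (GRCh38.p14). All sample columns of the table were used, and no table of the authors' own comparisons was used.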

Additional observations from a re-analysis of the deposited data

How the results depend on the processing

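Counts of members called in either direction with TBX2, TBX3, TBX4 and TBX5 were 26, 13, 8 and 13. Scaling by library totals gave 3, 0, 10 and 0 (58 in place of 21 genes called in at least 1 TBX pair, and 0 in place of 4 called in all 4 comparisons), and totals without the most counted gene, an alternative chosen after the data were seen, gave 26 for TBX3. The Ctl controls alone gave 15, 3, 5 and 5, with 1 gene called in all 4. A false-discovery rate of 0.05 gave 7, 4 and 8 for TBX3, TBX4 and TBX5 and 2 genes in all 4, as did 1 fit of the 18 libraries for the last. DESeq2 gave 5 for TBX4 and 8 for TBX5. With no count filter 1 gene, MRPL14, was called in EV against Ctl. Leaving out 1 library gave 15 to 26 for TBX2 (15 without TBX2 replicate c), 6 to 17 for TBX3 (6 without TBX3 replicate a or b), 4 to 7 for TBX4 (4 without TBX4 replicate a; 5 without TBX4 replicate b or c or EV replicate a), 6 to 12 for TBX5 (6 without TBX5 replicate a, 7 without replicate c), 0 to 1 for EV against Ctl (MRPS12 without Ctl replicate c, MRPL14 without EV replicate b), 21 for the pairs (without TBX4 replicate c) and 2 to 4 called in all 4 (2 without EV replicate b).

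A fit with the letters as a replicate block gave 5 for TBX4 and changed no other of these counts by over 1.5 times. The letters did not pair the libraries: deviations of same-lettered libraries correlated at 0.00043 on average and -0.10 at lowest, and 6 of 18 libraries were closest to their own letter. Of the named genes, values reversed under library totals for MRPL10 and MRPL13 with TBX5 (-0.12 and -0.0037) and MRPL4 and MRPS16 with TBX4 (0.013 and 0.059). Over all alternatives, named values kept direction and call in 551 cases and lost the call in 149. The cause of these changes was not tested. Counts of 9 to 46 for MRPS17 and 7 to 43 for SARS2 limit both.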

Other observations

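MTG1 and MTG2, a pair of GTPases that act late in the assembly of the large mitochondrial subunit, were singled out after their values were seen, since their calls went in opposite directions. MTG2 lay at 13.7 to 16.8 CPM in the controls and at 24.1, 24.2 and 19.2 with TBX2 and 18.9, 18.4 and 21.9 with TBX3, all above the controls. Its log2 fold changes were 0.59 ± 0.09 with TBX2 and 0.40 ± 0.09 with TBX3 (adjusted p = 6.13e-05 and 0.00503, edgeR). MTG1 lay at 1.69 to 3.31 CPM in the controls and at 1.38, 1.41 and 1.79 with TBX2 and 1.55, 0.992 and 1.30 with TBX5. Its log2 fold changes were -0.76 ± 0.27 and -0.92 ± 0.30 (adjusted p = 0.0394 and 0.0611), where 1 of the TBX2 libraries lay among the controls and the TBX5 libraries lay below them. With TBX4 neither gene was called (adjusted p = 0.801 for MTG1 and 0.139 for MTG2).

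MALSU1, which keeps the large subunit from joining the small one too early, was called lower with TBX2 and TBX3, at log2 fold changes of -0.48 ± 0.13 and -0.32 ± 0.11 (adjusted p = 0.00745 and 0.0592, edgeR), and was not called with TBX4 or TBX5 (adjusted p = 0.801 and 0.394).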
